A study of Mus musculus with 3 samples.

Results

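The genes for the protein subunits of the cytoplasmic ribosome were followed in RNA bound to chromatin of mouse macrophages. Members were the genes whose symbol has the form of a ribosomal protein name (Rpl, Rps or Rplp with a number and at most a short suffix, or Rpsa) and that have at least 1 protein-coding transcript. The rule used names and annotation only and gave 84 of the 55536 genes in the tables. Another 4 genes with matching symbols (Rps4l, Rps12l1, Rpl32l and Rpl6l) have no protein-coding transcript and were left out. The members comprise 43 large-subunit proteins, 31 small-subunit proteins including Rpsa, the 3 stalk proteins Rplp0, Rplp1 and Rplp2, and 7 paralogs whose symbol ends in l, l1 or al. They lie on 19 chromosomes.

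The data are total RNA-seq of the chromatin fraction of bone-marrow-derived macrophages, primary cells of the C57BL/6J strain, after depletion of ribosomal RNA. Every culture had 12 h of Lipid A at 100 ng/ml, a bacterial agonist of the receptor TLR4, then 12 h without it, and was taken at minute 0 of re-exposure. The labels give 3 biological replicates of this 1 state, 1 donor identifier for all of them, and no untreated samples, so each value is a level and not a response. Starting RNA was 1000, 250 and 500 ng in replicates 1, 2 and 3; sex and age are given as not collected. Whether the cultures came from separate animals is not stated, and p-values measure only the spread between these samples, which may be technical.

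A ribosome holds 1 copy of most of these proteins, so cells make them in matched amounts, and their messenger RNAs are among the most abundant and stable in the cytoplasm. A run of pyrimidines at the 5′ end of these mRNAs, the TOP motif, lets LARP1 and mTORC1 control the translation of the family together. RNA on chromatin is mostly still being transcribed or spliced, so it is read here beside retained-intron isoforms, annotated transcripts that keep at least 1 intron. Many ribosomal protein genes also carry small nucleolar RNAs, which guide the modification of ribosomal RNA, inside their introns.

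Replicate 3 stood apart from the other libraries, and the values that bear on this come before the results. Replicate 1 had 11958978 expected counts, replicate 2 had 17283529 and replicate 3 had 19475027. All 10 macrophage markers were present in every library, with a summed level of 1003, 1283 and 1155 TPM (a level corrected for transcript length and scaled to a fixed sum per library). The 12 fibroblast and stromal markers summed to 0.2, 2.23 and 690.7 TPM, and all 12 were at least 2-fold higher in replicate 3 than in both others. Col1a1, a collagen chain, was listed at 0.01, 0.43 and 149.2 TPM, and Dcn, Thy1 and Pdgfra were at 0 in replicates 1 and 2. Neutrophil and lymphocyte markers summed to at most 1.21 TPM in any library. Erythroid markers summed to 19.6, 19.2 and 10.1 TPM, nearly all of it Alas2. The 13 mitochondrially encoded mRNAs summed to 731.1, 417.5 and 1695 TPM, and 7 of the 11 with enough counts were at least 2-fold higher in replicate 3 than in both others. The part of these differences in the results on replicate 3 was not tested. In such bulk RNA, fewer cells of a type and less RNA per cell cannot be told apart.

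The first 20 bases of the annotated mRNAs are shown for 5 members because the TOP motif is the feature best known to bind this family together. Each is the start of the member's protein-coding model with the highest level, 5′ to 3′ in mm10, with the longest pyrimidine run in capitals where it has at least 5 bases.
Rps24 (chr14:24490718-24490737, plus strand): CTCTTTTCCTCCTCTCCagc
Rpl4 (chr9:64173375-64173394, plus strand): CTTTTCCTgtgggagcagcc
Rpl36 (chr17:56613416-56613435, plus strand): CTTCCTgtcccggccgccat
Rplp1 (chr9:61914523-61914542, minus strand): gaTCTTTTCCTCagctgccg
Rpl10 (chrX:74270812-74270831, plus strand): ggaagataggccgcctatat
The first 3 begin with C and a run of pyrimidines. In Rplp1 the run begins at base 3, and the annotated start of Rpl10 has none of 5 bases or more. Over all 84 members, 8 annotated starts (9.52%) were a C followed by at least 4 pyrimidines, against 508 of 21866 protein-coding genes (2.32%). A run of at least 5 pyrimidines anywhere in these 20 bases was present in 39 members (46.4%) and in 32.4% of protein-coding genes. Only the sense strand was searched, the annotated start need not be the base where transcription begins, and no match says only that these letters are not in the window.

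The splice junctions that separate spliced from intron-retaining RNA are shown for 4 members. Their retained-intron isoforms were above the members' median of 15.1, 13.8 and 15.5 TPM in replicates 1, 2 and 3. For each, the last 12 exon bases and the first 12 intron bases come first and the last 12 intron bases and the next 12 exon bases second, with the intron in capitals. The coordinates are those of the intron in mm10, and both stretches are read from the retained-intron model with the highest level among those that keep an intron of the protein-coding model.
Rpl10, upstream junction (chrX:74271719-74271799, plus strand): gtggtgtccctgGTAAGTAGTGAC
Rpl10, downstream junction: CGTGTTTTTCAGatgctaagatcc
Rps9, upstream junction (chr7:3704065-3704326, plus strand): ctgagttcgtagGTGAGTGTTCTG
Rps9, downstream junction: TTTACTGCGCAGgcgcagccggcc
Rps24, upstream junction (chr14:24492117-24493382, plus strand): agactggcaagaGTAGGTATCTTA
Rps24, downstream junction: CTTCTCTCATAGcatggcctttat
Rpl10a, upstream junction (chr17:28329523-28330524, plus strand): tcaagaagctggGTAGGTGGGGCT
Rpl10a, downstream junction: TGTGTCTTCTAGctaagaagtacg
These introns are 81, 262, 1266 and 1002 bases long. Of the 64 members with a retained-intron model, 41 gave such a junction, and all 41 introns began with GT and ended with AG. The introns ranged from 78 to 1633 bases with a median of 237.

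Nearly all members were detected, most of them above the upper quartile of protein-coding genes. Of the 84, 81 reached 1 TPM in every library, where 46.1% of protein-coding genes did, and 79 had a mean of at least 10 TPM. The median over members of the mean level was 37.8 TPM, against 0.913 TPM over all 22028 protein-coding genes. The lower quartile of the members was 26.3 TPM, above the upper quartile of protein-coding genes at 11.6 TPM. By library the members' median was 16.5, 21.4 and 72.0 TPM in replicates 1, 2 and 3. Replicate 3 was the highest, and without it the median of the means was 18.6 TPM. Together the members held 0.14%, 0.137% and 0.298% of the counts assigned to genes.

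**Figure D1:**
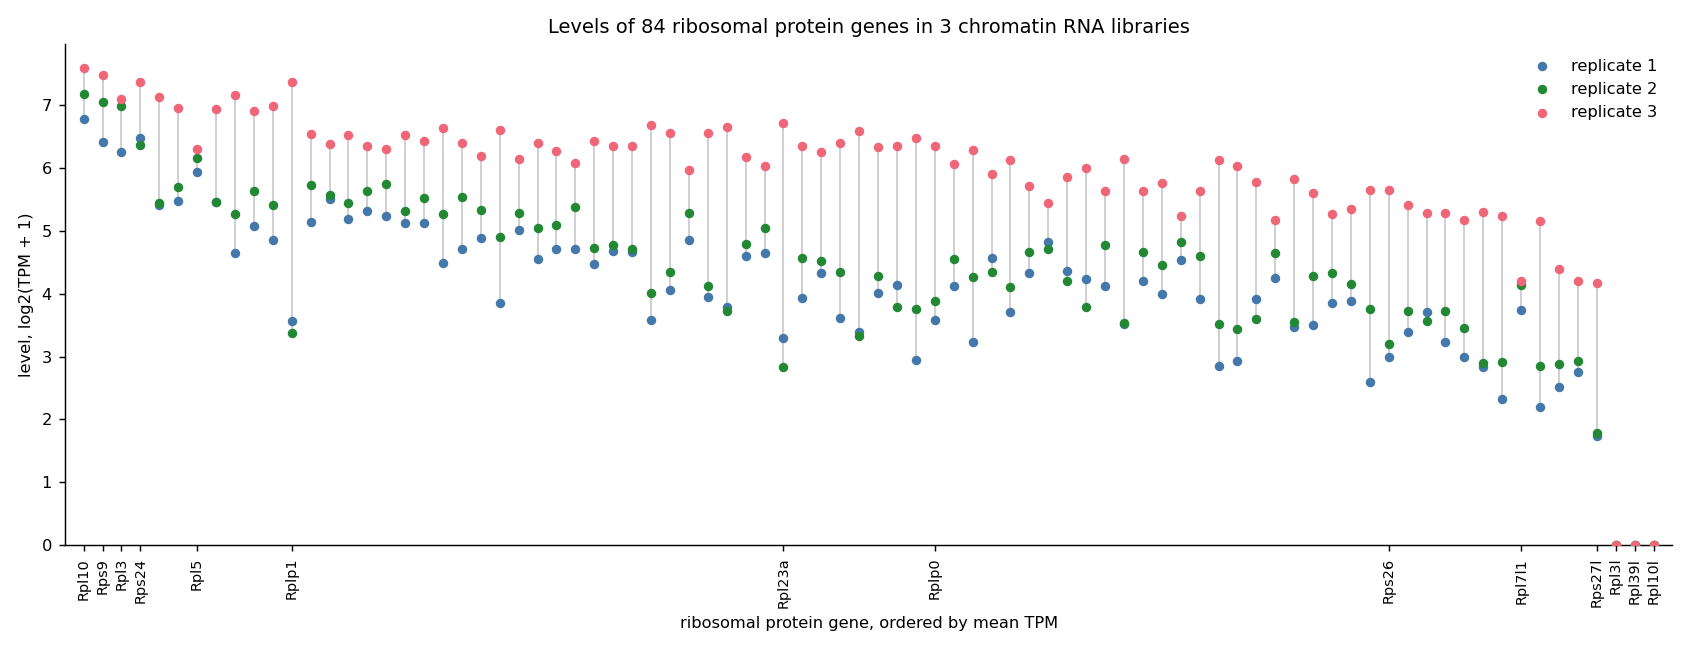
Level of each of the 84 ribosomal protein genes as log2(TPM + 1), ordered by mean TPM, with 1 point per library, some genes named and a grey line from the lowest to the highest. Replicate 3 lies above the others at nearly every gene, and 3 paralogs at the right are at 0 in all libraries.

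Rpl10, a large-subunit protein added late to the subunit, was the highest member in each library by the alignment-based levels. It was at 108.6, 144.7 and 192.6 TPM (mean 148.6 ± 42.1, SD, n = 3). Its gene lies at chrX:74270812-74273135 in mm10. The small-subunit protein gene Rps9 (chr7:3703993-3706897) followed with 84.2, 131.7 and 177.4 TPM (mean 131.1 ± 46.6, SD, n = 3). Rpl3, a core protein near the catalytic centre, was at 75.5, 126.2 and 135.9 TPM and Rps24, of the small subunit, at 88.1, 81.4 and 165.4 TPM. These 4 means lay within 1 SD of their neighbours in the order, so their ranking is not resolved. In the read-based table, a second quantification, Rps9 was above Rpl10 in every library. There Rps9 was at 113.3, 122 and 148.9 TPM and Rpl10 at 91.65, 88.6 and 107.3 TPM. Rpl13a and Rps12 completed the 6 highest, with means of 74.4 ± 55.7 and 72.5 ± 43.9 TPM (SD, n = 3).

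Large and small subunits were at like levels. The medians of the mean level were 39.9 TPM over the 43 large-subunit genes and 39.3 TPM over the 31 small-subunit genes. The stalk proteins, which recruit translation factors, had mean levels of 35.2 TPM for Rplp0, 61.5 TPM for Rplp1 and 31.7 TPM for Rplp2. Without replicate 3 these means were 12.4, 10.1 and 21.7 TPM, so that Rplp2 was then the highest of the 3 and Rplp1 the lowest. Rpsa, which is both a small-subunit protein and a laminin receptor, was at 24.4, 25.3 and 80.5 TPM.

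Although the proteins are needed in matched amounts, the chromatin levels of their genes were spread widely, and more so in replicates 1 and 2. Over the 77 members other than the paralogs, levels ranged from 3.58 to 108.6 TPM in replicate 1, from 6.17 to 144.7 TPM in replicate 2 and from 34.9 to 192.6 TPM in replicate 3. The SD of log2(TPM + 1) across these genes was 0.96, 0.98 and 0.59. The order of the 84 members was shared by replicates 1 and 2, with a Spearman rho of 0.948 across genes. It was shared less with replicate 3, at 0.584 against replicate 1 and 0.576 against replicate 2. These correlations describe genes within the libraries, which are not independent replicates. Rpl5, which binds 5S ribosomal RNA, ranked 5 of the members in replicates 1 and 2 and 38 in replicate 3. Rplp1 ranked 61 and 72 in replicates 1 and 2 and 4 in replicate 3.

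Paralogs were low or at 0. Rpl3l, Rpl39l and Rpl10l had 0 alignment-based counts in every library. A count of 0 allows up to 0.251, 0.184 and 0.15 CPM (counts scaled by library size) in replicates 1, 2 and 3. In the read-based table the mean levels of these 3 genes were 0.117, 0.218 and 0.0412 TPM. Their widely expressed namesakes Rpl3, Rpl39 and Rpl10 had means of 112.5, 17.0 and 148.6 TPM. Rpl3l is known from striated muscle, and Rpl10l and Rpl39l from male germ cells. Rpl7l1 had the highest mean level among the paralogs, at 12.3, 16.6 and 17.4 TPM, against 22.8, 19.4 and 59.1 TPM for Rpl7. Rpl36al was at 4.70, 6.35 and 20.2 TPM, against 8.42, 12.2 and 38.2 TPM for Rpl36a. Rpl22l1 was at 5.72, 6.63 and 17.4 TPM, against 13.7, 16.8 and 39.7 TPM for Rpl22. Rps27l, a target of p53, was at 2.34, 2.44 and 17.0 TPM, against 24.1, 37.4 and 143 TPM for Rps27. In each of these 4 pairs the listed TPM of the paralog was the lower in every library. The deposited TPM interval of Rpl22l1 was wide, at 5.16 to 74.2, 6.38 to 115.6 and 14.9 to 95.2 TPM. It overlapped that of Rpl22 in every library, so the order of this pair is not resolved. Intervals also overlapped for Rpl7l1 and Rpl7 in replicate 2 and for Rpl36al and Rpl36a in replicate 1. Rps4x, the X-linked gene for S4 whose suffix marks the chromosome and not a paralog, was at 12.1, 16.2 and 68.8 TPM.

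Replicate 3 carried more ribosomal protein RNA than the other libraries at almost every gene. Counts were scaled between libraries by edgeR's TMM method. Of the 81 members that averaged 10 or more counts, 54 were at least 2-fold higher in replicate 3 than in both others. Of all 16200 such genes 6.46% were 2-fold higher. In the other direction 0 members were 2-fold lower, against 75 of the 16200 genes. In either size of difference, 79 of the 81 were higher than in both others, where 35.4% of all genes were. The median log2 ratio over members was 1.47 of replicate 3 to 1 and 1.53 of replicate 3 to 2, but 0.03 of replicate 2 to 1. Over all genes the same medians were 0.03, 0.02 and 0.01. None of the 81 differed 2-fold between replicates 1 and 2, where 998 of the 16200 genes did. With the read-based counts the count of 54 became 30 of 81, against 3.89% of all genes.

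The stalk proteins Rplp1 and Rplp0 and the large-subunit protein Rpl23a, which sits at the exit tunnel, had the largest ratios. Rplp1 (chr9:61913284-61914542) was at 10.8, 9.44 and 164.1 TPM, and its scaled count in replicate 3 was 13.7-fold the mean of the others. Rpl23a (chr11:78180932-78183584) was at 8.85, 6.17 and 104.6 TPM, an 11.7-fold ratio in scaled counts. Rplp0 (chr5:115559467-115563727) was at 11.0, 13.7 and 80.9 TPM, an 8.34-fold ratio. In all 3 genes replicate 3 stood above both others. The log2 ratio of replicate 2 to replicate 1 was 0.07 for Rplp0, -0.67 for Rplp1 and -0.96 for Rpl23a. Rpl36 and Rpl24 followed, with ratios of 7.96 and 7.68.

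At the other end, Rps24 had a log2 ratio of -0.12 and Rpl18 of 0.05, and Rps20, Rpl5 and Rpl7l1 lay between 0.18 and 0.24. Rps24 and Rpl7l1 were the 2 of the 81 that were not above both other libraries in scaled counts. The log2 ratio was lower where the level in replicates 1 and 2 was higher, with a Spearman rho of -0.667 across the 81 members. Ratio and level share the same libraries, so this is a description only. The rho was -0.146 with mRNA length and -0.293 with gene length.

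Against edgeR's fitted trend of variability, 0 members and 0 of 14839 genes tested were called more variable than the trend after Benjamini-Hochberg adjustment (0% of all genes). The filter on low counts passed 80 members, all but Rps27l, Rpl3l, Rpl39l and Rpl10l. At an unadjusted p under 0.05, 62 of the 80 members and 5.03% of all genes lay above the trend. The smallest p-values were those of Rplp0, Rplp1 and Rpl23a, with an adjusted p of 0.191 each. With a robust estimate of the prior, an alternative chosen after the data had been seen and after several forms of the fit had been tried, these 3 genes were called at an adjusted p of 0.0485, among 24 genes in all (0.162%). Without replicate 3, 0 of 80 members had an unadjusted p under 0.05, where 836 of all 14603 genes tested did.

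Replicate 3 differed in the spliced isoforms of these genes and hardly in those that keep introns. Summed over the members in the read-based table, protein-coding isoforms were at 1009, 904.3 and 3211 TPM in replicates 1, 2 and 3, which made replicate 3 3.36-fold the mean of the others. Retained-intron isoforms were at 1201, 1188 and 1306 TPM, 1.09-fold the mean of the others. Of all RNA of the members, protein-coding isoforms made up 38.8%, 36.8% and 63.8%, and retained-intron isoforms 46.2%, 48.4% and 26.0%. The alignment-based transcript table gave 612.7, 738.8 and 4383 TPM for the protein-coding isoforms and 969.4, 1298 and 1320 TPM for the retained-intron isoforms. Isoforms of a gene share exons, so these levels are estimates of how shared reads divide.

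**Figure D2:**
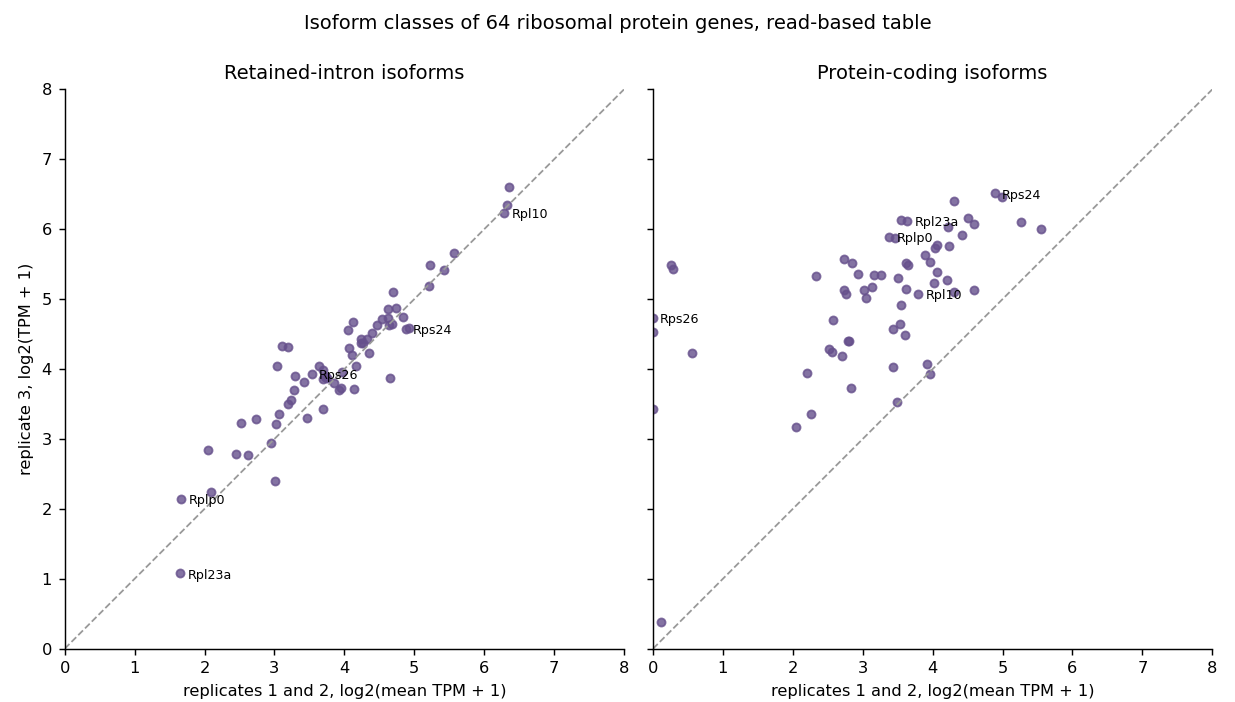
Level of retained-intron isoforms (left) and protein-coding isoforms (right) in replicate 3 against replicates 1 and 2, as log2(TPM + 1), for the 64 ribosomal protein genes with a retained-intron model. The left points follow the dashed line of equality and most right points lie above it.

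Gene by gene the picture was the same. A retained-intron model exists for 64 members, and all of them passed 1 TPM in every library. With 1 TPM added, protein-coding isoforms were at least 2-fold higher in replicate 3 than in both others in 50 of the 64, against 2.43% of 7362 protein-coding genes of the same kind. Retained-intron isoforms were so in 1 of the 64, against 0.136%. The median log2 ratio of replicate 3 to the mean of the others was 1.69 for the members' protein-coding isoforms and 0.15 for their retained-intron isoforms.

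The share of a gene's RNA in retained-intron isoforms was accordingly lower in replicate 3. Its median over the 64 members was 52.8%, 56.5% and 29.3% in replicates 1, 2 and 3, and 46.1%, 47.2% and 44.4% over the 7362 genes. It was lowest in replicate 3 in 58 of the 64 members, against 41.9% of all such genes. The 6 exceptions, named after their values were seen, were Rps20, Rps16, Rpl15, Rps12, Rpl18 and Rpl7l1. Replicates 1 and 2 alone gave a median of 55.4% over the means.

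**Figure D3:**
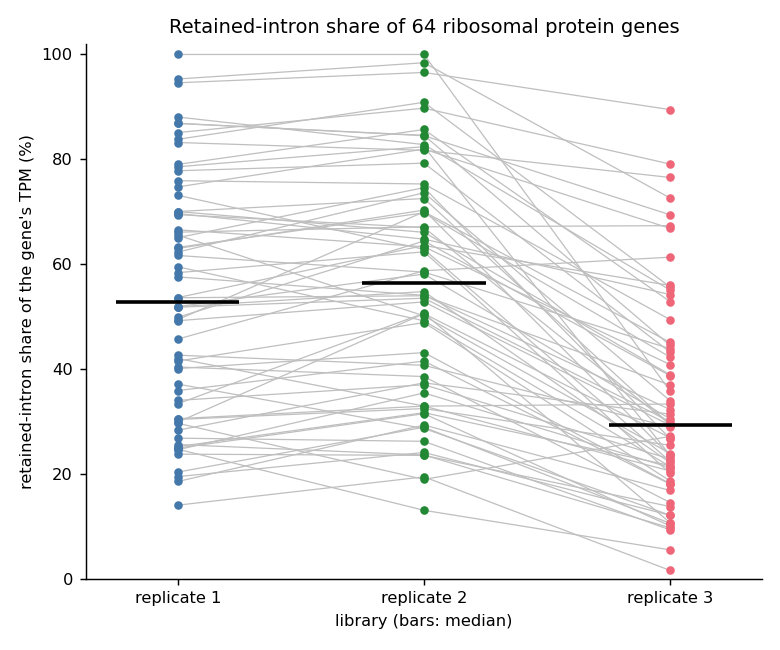
Retained-intron share of each of the 64 ribosomal protein genes in the 3 libraries, in percent of the gene's TPM, with a line per gene and a black bar at the median. The medians are 52.8%, 56.5% and 29.3%, and most lines drop towards replicate 3.

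Rpl12, a protein of the stalk base, and Rpl10a had the highest shares. The share of Rpl12 was 94.6%, 96.6% and 89.5% in replicates 1, 2 and 3 (mean 93.6% ± 3.66, SD, n = 3). That of Rpl10a was 95.3%, 98.4% and 72.6%, and its protein-coding isoforms were listed at 0, 0 and 9.72 TPM. Rpl3, Rpl5 and Rpl10 had mean shares of 84.7% ± 5.34, 80.5% ± 3.50 and 80.3% ± 9.47 (SD, n = 3). In the read-based table these 5 genes were therefore seen mainly through isoforms that keep an intron, in replicate 3 too. For all 5, that table gave a lower total in replicate 3 than the alignment-based one. Rpl12 was at 23.1 against 72.5 TPM and Rpl10 at 107.3 against 192.6 TPM. The shares therefore describe the read-based levels only.

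Among the named genes, the share of Rps26, a small-subunit protein, differed most between libraries. Its retained-intron isoforms were at 11.2, 9.88 and 14.2 TPM, while its protein-coding isoforms were listed at 0, 0 and 25.5 TPM. The share was thus 100%, 100% and 35.8%. At the low end, Rpl23a had shares of 14.04%, 19.4% and 1.59%, Rplp0 of 24.7%, 13.1% and 5.52%, and Rps15a of 25.6%, 23.6% and 9.72%.

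For the models whose junctions are printed above, the Rps24 model that keeps the intron was at 26.0, 19.9 and 19.2 TPM, and the spliced model at 1.79, 0 and 62.9 TPM. The Rps9 model with the intron was at 29.6, 35.7 and 28.7 TPM, and its spliced model at 14.3, 15.3 and 47.0 TPM. For Rpl10 the values were 25.3, 29.4 and 25.5 TPM with the intron and 8.02, 7.57 and 17.4 TPM for the spliced model. For Rpl10a they were 10.8, 11.8 and 13.6 TPM with the intron and 0, 0 and 9.72 TPM for the spliced model. In all 4 genes the intron-keeping model was the higher in replicates 1 and 2. In replicate 3 the spliced model was the higher for Rps24 and Rps9 and not for Rpl10 and Rpl10a. Each spliced model was the protein-coding one with the highest mean over all libraries, so replicate 3 weighed in its choice. Over all isoforms, Rps24 had 39.4, 17.8 and 90.6 TPM in protein-coding ones and 33.2, 23.7 and 22.8 TPM in retained-intron ones. For Rps9, Rpl10 and Rpl10a the retained-intron sum was the higher in every library.

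The length that the deposited tables assign to a gene, which enters its TPM, also differed between libraries. The effective length was shorter in replicate 3 than in both others in 37 of the 81 members with enough counts, against 15.5% of all genes. For Rps24 it was 1797, 1755 and 894.4 bases, and expected counts of 1861, 2011 and 2553 became the 88.1, 81.4 and 165.4 TPM given above. Its TPM in replicate 3 was thus the highest of the 3 while its scaled count was not. Rps15a had effective lengths of 3102, 2492 and 774.4 bases and levels of 11.2, 19.3 and 83.8 TPM, with a log2 ratio of 0.56 in scaled counts. For Rpl18 the lengths were 2373, 1926 and 1021 bases, and the levels 24.1, 32.04 and 64.2 TPM. Other members went the other way and had their longest effective length in replicate 3. It was 566.1, 556.1 and 705.5 bases for Rps2 and 782.5, 749 and 1045 bases for Rplp0. The part of the isoform shift in these lengths was not tested. By TPM, 59 of the 81 members were at least 2-fold higher in replicate 3 than in both others, against 6.47% of all genes.

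Small nucleolar RNA genes lay inside 30 of the 84 members, on the same strand, 58 in all. Rpl4, a protein that lines the exit tunnel, held 5 of them, and Rpl13a held 4. Rpl4 was at 25.1, 33.3 and 76.5 TPM and Rpl13a at 41.8, 42.8 and 138.8 TPM. Replicate 3 was the highest in both. The median of the mean level was 40.7 TPM over the 30 hosts and 35.1 TPM over the 54 others, which include the paralogs at 0. The hosts' median retained-intron share was 63.2%, 62.8% and 38.9%, against 49.4%, 50.6% and 27.2% in the others. In 18 of the 30 hosts and 36 of the 51 others with enough counts, replicate 3 was at least 2-fold higher than both other libraries. The same held for 6.46% of all genes with enough counts. These differences between hosts and others were not tested.

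Ribosomal protein genes have many processed pseudogenes, copies made from spliced mRNA, and their reads can be hard to place. In the median member 58.2% of the 31-base words of the mRNA also occurred in a transcript of another gene, and 56.7% in an annotated pseudogene. The share was above 50% in 51 of the 84. It was 98.7% for Rps27, 94.1% for Rpl36 and 92.3% for Rpl10, whose reads could therefore also come from other genes. Among genes chosen here for low shares, it was 8.79% for Rps3, 9.99% for Rpl8, 10.3% for Rps20 and 17.1% for Rpl18. Their scaled counts in replicate 3 were 1.71-fold, 4.56-fold, 1.14-fold and 1.04-fold the mean of the others, so genes with few shared words ranged from near-equal to several-fold higher. Across the 81 members the Spearman rho between the shared part and the log2 ratio of replicate 3 was 0.087.

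The 292 pseudogenes named after a member summed to 214.3, 345.7 and 438.7 TPM, against 1823, 2352 and 6165 TPM for the members themselves. Of these, 224 were below 1 TPM in every library. Of the 34 with enough counts, 8 were at least 2-fold higher in replicate 3 than in both others, against 6.46% of all genes. Rps23-ps1, at 1.21, 5.54 and 42.9 TPM, was the highest of the 8.

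The alignment-based and read-based tables gave like levels for most members, with exceptions. The read-based mean was the higher in 39 members and the lower in 45, and the median ratio of read-based to alignment-based mean was 0.985. In TPM, Rps7 differed most upwards, at 65.8 TPM read-based and 31.5 TPM alignment-based, followed by Rpl35a at 65.1 and 35.0 TPM. Rps19, Rpl24 and Rpl11 were read-based at 78.2, 40.2 and 58.3 TPM and alignment-based at 59.4, 22.2 and 42.4 TPM. As a ratio Rps27l differed more than Rps7, at 18.5 TPM read-based and 7.27 TPM alignment-based. Downwards, Rpl10 was at 95.9 TPM read-based and 148.6 TPM alignment-based, and Rps12 at 28.7 and 72.5 TPM. Rpl12, Rpl9 and Rps24 were read-based at 20.99, 35.8 and 91.9 TPM and alignment-based at 46.9, 56.3 and 111.6 TPM. Rps12, with 83.8% shared words, and Rps7, with 64.3%, show how far a level depends on the table. The deposited posterior SD of the count, the authors' own measure of uncertainty in assigning reads, had a median of 0.315% of the count in replicate 3 and a highest value of 4.38% in Rpl24.

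**Figure D4:**
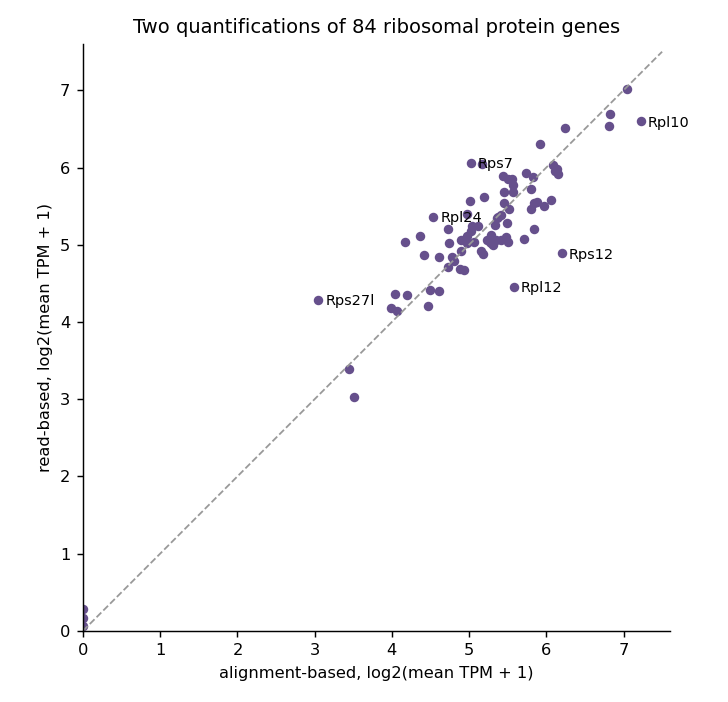
Mean level over 3 libraries of the 84 ribosomal protein genes in the read-based table against the alignment-based table, as log2(mean TPM + 1), with the line of equality. Rpl10, Rps12 and Rpl12 lie below the line, and Rps7, Rpl24 and Rps27l above it.

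Genes that share the members' biology behaved in different ways between libraries. Of 3 ribosomal proteins that the name rule misses, 2 were at least 2-fold higher in replicate 3 than in both others, and the median log2 ratio was 1.43. One of them, Fau, which encodes S30 as a fusion to a ubiquitin-like protein, was at 15.7, 23.6 and 59.7 TPM. Rack1, a small-subunit scaffold protein, was at 41.0, 53.7 and 84.5 TPM and did not reach 2-fold. In the TOP class outside the ribosome, chiefly translation factors, 5 of 17 genes were 2-fold higher, against 6.46% of all genes. Among its highest members, Eef1a1, which brings aminoacyl-tRNA to the ribosome, was at 148.6, 190.7 and 461.3 TPM, while Eif4a2, an initiation helicase, was at 332.6, 439.1 and 390 TPM. The retained-intron share of this class had a median of 62.2%, 67.6% and 44.1% over 13 genes. It was lowest in replicate 3 in all 13, against 41.9% of protein-coding genes with a retained-intron model.

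Genes of the machinery that builds ribosomes, and of the pathway that controls these mRNAs, were compared in the same way. Over all genes with enough counts, 6.46% were 2-fold higher in replicate 3 than in both others. The shares in these lists were near or under that, so the counts do not set the lists apart from all genes. Of 30 ribosome biogenesis genes, 0 were 2-fold higher in replicate 3 than in both others, and the median log2 ratio of replicate 3 to the mean of the others was 0.10. Ncl, the nucleolar protein nucleolin, was at 36.2, 35.2 and 46.0 TPM. Of 15 genes of mTORC1 and LARP1 control, 1 (6.67%) was 2-fold higher, Myc at 0.82, 0.85 and 2.04 TPM. Akt1s1, an inhibitory subunit of mTORC1, was at 9.07, 13.99 and 21.9 TPM without reaching 2-fold in scaled counts. Larp1 itself, which binds the TOP motif, was at 41.7, 48.3 and 47.4 TPM. Of 78 mitochondrial ribosomal protein genes, nuclear genes for a separate ribosome, 2 were 2-fold higher, and the median log2 ratio was 0.13. Their median mean level was 5.96 TPM.

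As a list, other abundant mRNAs differed less in their counts. Of 10 abundant cytoplasmic mRNAs of macrophages, 0 were 2-fold higher than in both others, where 6.46% of all genes were. Their median log2 ratio was 0.43. Actb, cytoplasmic actin, was at 304.6, 395.2 and 357 TPM and Fth1, ferritin heavy chain, at 650.8, 720.4 and 711.7 TPM. Gapdh, a glycolytic enzyme, was at 24.9, 44.3 and 90 TPM, a log2 ratio of 1.09 to the mean of the others, with 1.31 to replicate 1 and 0.90 to replicate 2. The list's median retained-intron share was 57.2%, 55.6% and 40.1% over 7 genes. The share was lowest in replicate 3 in all 7, against 41.9% of protein-coding genes with a retained-intron model. The nuclear RNA Neat1 was at 1583, 2122 and 2060 TPM. The median log2 ratio of the 10 macrophage markers was -0.19. In edgeR's test of variability, 0 genes of any of these lists were called, with the plain prior or the robust one. Among all 14839 genes tested, the plain prior called 0 and the robust one 24. The fibroblast and stromal markers did not pass the filter of that test.

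**Figure D5:**
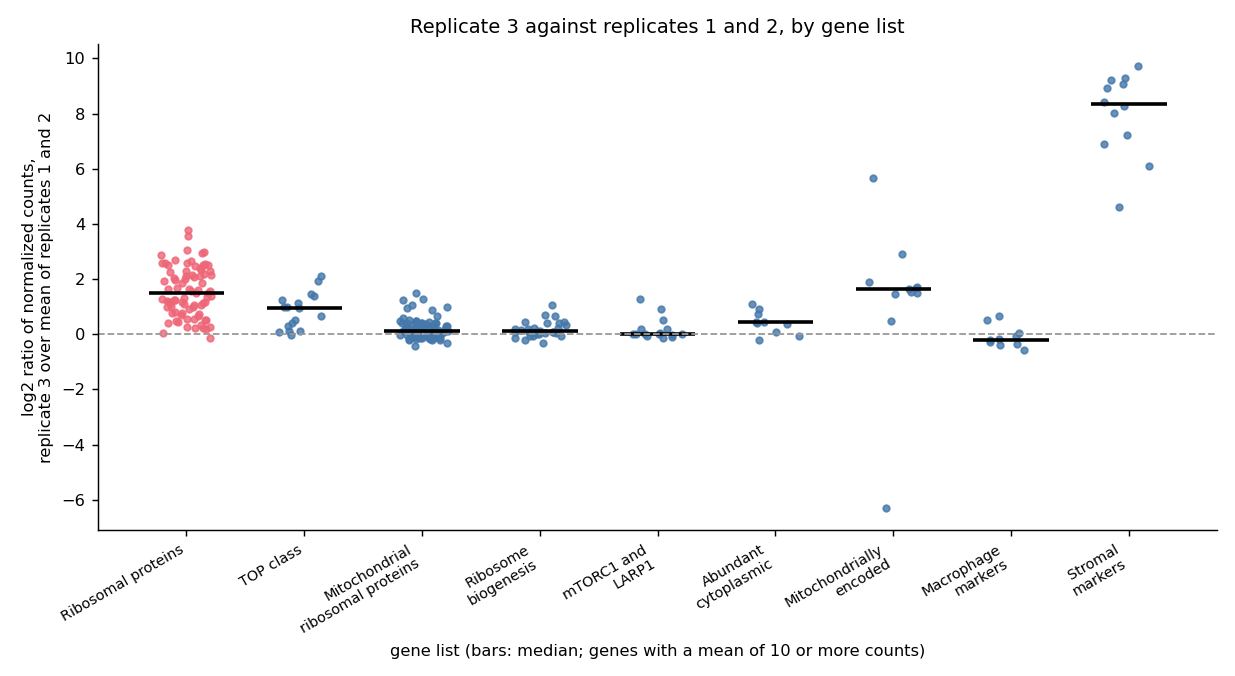
Log2 ratio of TMM-scaled counts in replicate 3 to the mean of replicates 1 and 2, 1 point per gene with a mean of at least 10 counts, by gene list, with a bar at the median. The ribosomal proteins have a median of 1.48, against 0.10 for ribosome biogenesis, -0.19 for macrophage markers and 8.35 for stromal markers.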

How the data were processed

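Chromatin-fraction total RNA-seq of 3 libraries of 1 group was used as deposited. Expected counts per gene were deposited by the authors without normalization, and TPM values were deposited by the authors beside them. Per the file headers, posterior SDs and interval bounds are other columns of the same tables. The deposited README files trace the gene and alignment-based transcript tables to a transcriptome bam (mm10, GENCODE M21), and the read-based table to fastq files with an index. Tool names, versions and strand setting: not given in the sources used here. Reads of overlapping antisense genes may therefore not be told apart. Rows without a gene took 1.31%, 0.476% and 0.24% of each library's total and were left out.

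Members and lists were chosen with earlier results of these data known. Levels are TPM. Library ratios use TMM-normalized CPM with 0.1 added, for genes with a mean of at least 10 counts. Variability was tested in R 4.3.3 with edgeR 4.0.16, after rounding of the expected counts (filterByExpr, TMM, intercept only, quasi-dispersion against the trend, Benjamini-Hochberg over all genes tested, threshold 0.05). This step was tested on simulated data in which all genes had the same spread between libraries. That spread was lower than the common one here, a coefficient of variation of 0.212. The simulated data therefore cannot say how large a difference the fit would call in these libraries. Retained-intron shares are TPM of retained_intron transcripts over all transcripts of a gene, in the read-based table, for genes of at least 1 TPM in every library. Coordinates, gene types and sequences are from GENCODE M21, in which all 55536 gene IDs were found; no sequence from chromosome 18 is shown. Other steps used Python 3.11.15, numpy 2.4.6 and pandas 2.3.3. A limit for a count of 0 is 3 counts per library and covers counting error only.

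Named were the paralogs with their namesakes, Rpsa and the stalk genes, genes called more variable, and the 6 highest and 6 lowest by mean TPM. Also named were the 5 largest and 5 smallest ratios of replicate 3, the 5 largest differences between tables each way, the 6 highest and 4 lowest retained-intron shares, and the 3 genes with most small nucleolar RNA genes. Some genes that this rule picks, here and in other lists, are not reported here. Alternatives were DESeq2 1.42.0 size factors, library totals, other filters and thresholds, the read-based table, a pseudocount of 0.1 in place of 1, other scalings and leaving out each replicate.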

Additional observations from a re-analysis of the deposited data

How the results depend on the processing

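The count of members called more variable than the trend was 0 under the RLE, library-total, no-filter, 50-count, protein-coding, read-based and leave-one-out settings, and 3 with the robust prior, which was chosen after seeing the data. Over all genes these settings called 0 to 73, the most without replicate 3. The members' median of 37.8 TPM became 117.8 TPM when TPM was rescaled over nuclear protein-coding genes, a change of denominator, and 18.6 to 48.9 TPM without 1 replicate. The lowest of these was without replicate 3. The median log2(TPM + 1) of 4.86 ranged from 4.27 to 5.24 without 1 replicate. The 54 members at least 2-fold higher in replicate 3 were 53 to 65 under the other settings except the read-based counts, which gave 30; the cause was not tested. Against 1 other library alone, an alternative added after seeing the data, they were 56 and 58. The median retained-intron share of 47.5% was 46.1% to 52.4% under other tables and units and 42.9% to 55.4% without 1 replicate. The read-based table moved the mean TPM of 10 of 41 named members beyond 1 SD. Leaving out 1 of 3 libraries cannot move a mean that far by construction, yet without replicate 3 the means of Rplp1 and Rpl23a went from 61.5 and 39.9 TPM to 10.1 and 7.51 TPM. No paired analysis was possible because there is 1 group. With 3 libraries and no second group, no difference between libraries could be tested against a condition.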
